A study of Mus musculus with 4 samples.

Results

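Gcn5 (Kat2a) and Pcaf (Kat2b) are a pair of closely related lysine acetyltransferases, and Tada2a, Tada2b, Tada3 and Sgf29 (listed under its older symbol Ccdc101) are their partners in the acetyltransferase module. These 6 genes were taken by symbol from 23259 genes with a value in every library, and all 6 were found. Total RNA of 4 mouse embryonic stem cell clones, 2 KO and 2 WT, was sequenced. All 4 clones descend from Gcn5 flox/flox blastocysts through founder lines 4 and 6, which were transfected transiently with a vector that drives an EGFP-Cre fusion from the EF1α promoter. The KO clones (Gcn5 Δ3-18/Δ3-18, exons 3 to 18 excised) were picked from GFP-positive cells and the WT clones, in which those exons were kept, from GFP-negative cells, 1 clone of each genotype per line. The floxed lines had a normal male karyotype and were kept in medium with LIF at 1000 U/mL and 15% serum on a layer of mitotically inactivated fibroblasts, and the sources used here do not say if these were taken out ahead of RNA extraction.

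Gcn5 and Pcaf are alternative catalytic subunits: a complex holds one or the other. Each carries an acetyltransferase domain and a bromodomain, which binds acetylated lysine. The module they form with the Ada adaptors and Sgf29 is shared by SAGA and ATAC, large coactivator complexes that acetylate histone tails at promoters and enhancers. Tada2b is the adaptor of SAGA and Tada2a that of ATAC, whereas Tada3 and Sgf29 belong to both. Gcn5 is required for normal mouse development before birth, and Pcaf alone is not.

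The KO allele is defined by the exons it lacks, so the transcript around them is shown first. In GENCODE M21 (GRCm38) the Kat2a transcript Kat2a-201 lies on chromosome 11 and has 18 exons and 3043 bases, of which 2490 are coding. The exon numbers of the labels were taken to be those of this transcript, which was not checked. Exons 1 and 2 hold 509 bases, 16.7% of the transcript, and 448 coding bases. The files were made on mm9, so no genome positions are given. The 80 bases on both sides of the first removed boundary read as follows, with the start of exon 3 in capitals.
Kat2a exon 2 to exon 3: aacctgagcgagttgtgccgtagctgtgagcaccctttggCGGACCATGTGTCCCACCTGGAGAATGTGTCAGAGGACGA

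Genotype was read by PCR, per the labels, with 3 primers. WL20 and WL21-3 identified the floxed allele, and WL20 and WL23 were used on all clones after Cre.
WL20: cacagagcttcttggagacc
WL21-3: ggcttgattcctgtacctcc
WL23: atagtagcgactgcgcaacc
Neither WL20 nor WL21-3 matched a transcript of the 6 genes. The reverse complement of WL23 matched Kat2a alone, at bases 22 to 41 of exon 18, upstream of the stop codon. The stretch below runs from exon 17 into exon 18 and has the bases complementary to WL23 in capitals.
Kat2a exon 17 to exon 18: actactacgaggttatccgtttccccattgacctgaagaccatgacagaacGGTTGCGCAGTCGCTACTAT
Exon 18 has 686 bases, 22.5% of the transcript, and also holds the untranslated end. Exons 1 and 2 together with the bases from the WL23 site onward make up 38.6% of the transcript. If the labels number exons as Kat2a-201 does, exon 18 is among the removed exons. The labels also name WL23, which matches within it, as a primer used on the KO clones. Neither the numbering nor where the deletion ends could be settled from the sources used here.

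**Figure D1:**
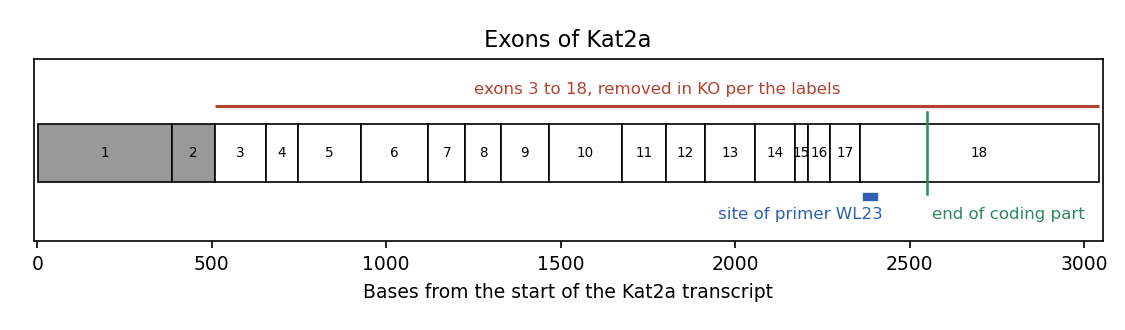
Exons of the Kat2a transcript, drawn to scale in bases from its start. Exons 1 and 2 (grey) lie before exons 3 to 18 (white), removed per the labels if these number exons as here. The site of primer WL23 lies in exon 18, between its start and the end of the coding part.

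Reads of the 2 paralogs can be told apart by sequence. The coding parts of Kat2a and Kat2b (chromosome 17) were identical at 72.2% of 2395 aligned bases, and no stretch of 50 bases was shared by the transcripts. Their longest shared run, 19 bases in capitals below, lies in exon 3 of Kat2a, among the removed exons.
Kat2a around the longest shared run: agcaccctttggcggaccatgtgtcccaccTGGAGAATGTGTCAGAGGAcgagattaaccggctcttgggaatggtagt
Kat2b around the longest shared run: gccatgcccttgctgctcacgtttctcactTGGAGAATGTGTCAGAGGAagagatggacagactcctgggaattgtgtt
The adaptors Tada2a (chromosome 11) and Tada2b (chromosome 5) were less alike, at 59.4% of 1167 aligned bases and a longest shared run of 13.

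Values were FPKM, fragments scaled to transcript length and sequencing depth, which the authors had also scaled to spike-in RNA. Over all genes FPKM summed to 520491 and 538257 in the KO clones of lines 4 and 6 and to 757931 and 680168 in the WT clones, and the depth behind them is unknown. Tests covered the 11932 genes that averaged 1 FPKM or more, and among these the median gene was lower in KO by a log2 difference of -0.445 in line 4 and -0.185 in line 6, on the log2(FPKM + 1) scale. A difference relative to the median gene has this shift taken off within its line. All 10 embryonic stem cell markers were found, with summed FPKM of 3385 and 3512 in KO and 5357 and 4249 in WT. All 16 fibroblast markers were found too, with summed FPKM of 262.5 and 321.0 in KO and 333.7 and 253.5 in WT. Every library thus held transcripts of these markers, and which cells they came from was not tested. None of the 8 defining fibroblast markers was without signal in all libraries, and Col1a2, the highest of them, had 41.5 and 38.1 FPKM in KO and 53.5 and 28.2 FPKM in WT.

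Gcn5 transcripts fell in both KO clones but remained measurable. Kat2a had 11.50 and 11.54 FPKM in the KO clones of lines 4 and 6, against 38.7 and 34.4 FPKM in the WT clones. The KO clones lay close together and far below both WT clones. The mean was 11.5 ± 0.0324 FPKM in KO and 36.6 ± 3.04 FPKM in WT (SD, n = 2 each), with a log2 fold change of -1.58 (SE 0.23, limma adjusted p = 0.0112). Kat2a was 1 of 2 called genes among 11932 (0.0168%), both lower in KO. Of the 6 genes it was the only one called, and 0 were called higher. With p left unadjusted, 10 genes were higher and 651 lower at a threshold of 0.05. With the founder line as a block, limma called 95 genes (0.796%), 4 higher and 91 lower in KO, Kat2a among them (adjusted p = 8.19e-11). That fit gave a gene's own spread no weight and used that of genes of like level. Its p-values thus do not measure how Kat2a varies between clones. Kat2a stayed called without WT replicate 1 (adjusted p = 0.0389, among 20 genes, 0.168%) and without WT replicate 2 (0.00596, among 133 genes, 1.11%). Without KO replicate 1 or KO replicate 2 limma called no gene, though with p left unadjusted 47 were higher and 256 lower without the first, and 4 higher and 829 lower without the second, and the adjusted p of Kat2a was 0.426 and 0.472 at log2 fold changes of -1.58 and -1.59. In each of these fits the lone library is assumed to vary like the pair of the other genotype. Once each library was centred on its median gene, Kat2a had a log2 fold change of -1.28 and was called only with the block (limma adjusted p = 0.0469, among 33 genes, 0.277%, of which 31 were higher and 2 lower in KO); without the block limma called 0 genes (0.0%), though 60 genes were higher and 24 lower if p was left unadjusted (under 0.05).

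The residual Kat2a signal was a similar share of WT in the 2 lines. The KO/WT ratio of FPKM was 0.297 in line 4 and 0.335 in line 6, and set against the median ratio of all tested genes it came to 42.1% and 38.8%. The share of the transcript outside exons 3 to 18 is 16.7%, or 38.6% if the bases from the WL23 site onward are counted with it, and since the end of the deletion is not settled, neither share is established for the KO allele. The files hold 1 value per gene, so how the reads fell on the exons was not tested. Per the labels' protocols, neither RT-PCR nor immunoblotting detected Gcn5 in these KO clones. The fibroblast markers above were present in both KO clones, and fibroblasts carry their own Gcn5 gene. Their part in the residual signal was not tested.

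Few transcripts dropped as far as Kat2a. In line 4, 4 tested genes had a larger log2 drop and in line 6, 22 did, and Npffr2, a receptor for neuropeptide FF, was the 1 gene with a larger drop in both lines. Npffr2 was close to no signal in KO and entered the tests through its WT values of 4.34 and 4.20 FPKM. The added 1 FPKM limits how far such a low gene can drop, and genes that averaged less were not counted. Relative to the median gene Kat2a lay at -1.22 in line 4 and -1.31 in line 6, with 90% of tested genes between -0.278 and 0.33 in line 4 and between -0.249 and 0.31 in line 6. Among tested genes in its own library, Kat2a stood at the 59.4 and 57.4 percentile of level in KO and at the 79.4 and 78.9 percentile in WT.

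**Figure D2:**
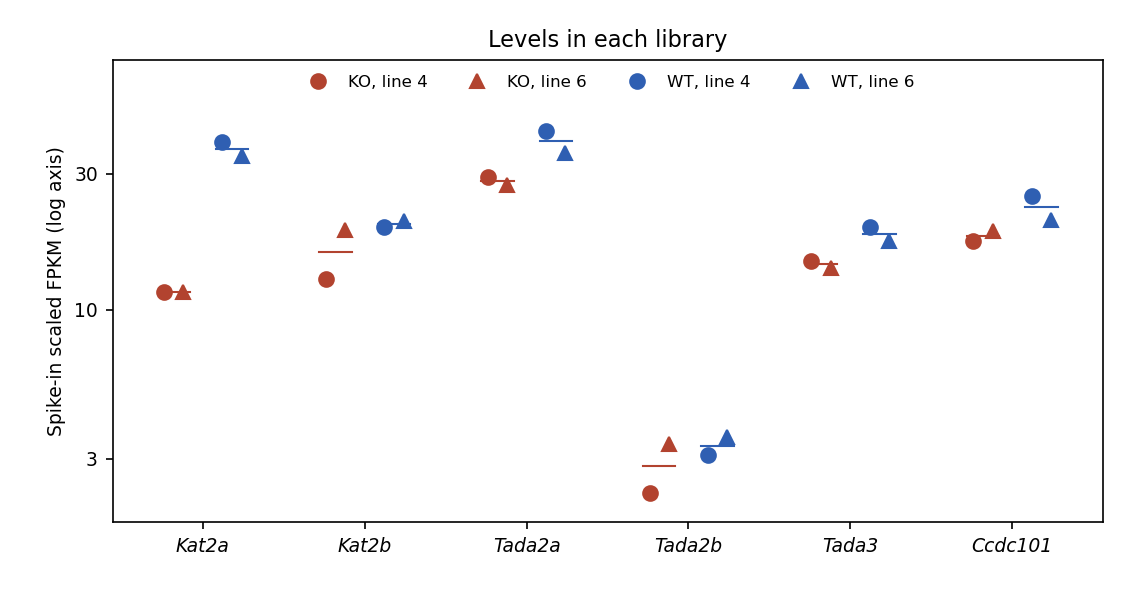
Spike-in scaled FPKM (log axis) of the 6 genes in each library, KO (red) left of WT (blue), founder line 4 as circles and line 6 as triangles, with bars at the group means. Kat2a separates the genotypes by more than any other of the 6, at 11.50 and 11.54 FPKM in KO and 38.7 and 34.4 FPKM in WT, and the KO clones of line 6 and line 4 differ most in Kat2b and Tada2b, by 1.48 and 1.49 times.

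The tested genes nearest to Kat2a on chromosome 11 were not called. Rab5c, a GTPase of early endosomes, had 37.1 and 45.5 FPKM in KO and 49.0 and 50.4 FPKM in WT, 0.0506 and 0.0395 above the median gene in lines 4 and 6 on the log2 scale (limma adjusted p = 0.445). Zfp385c, on the other side, had 3.35 and 3.36 FPKM in KO and 4.19 and 3.06 FPKM in WT (adjusted p = 0.808), so its groups overlapped. The immediate neighbours Hspb9 and Dhx58 had mean values under 1 FPKM and were not tested. Dhx58, an RNA sensor of innate immunity, had 1.17 and 0.726 FPKM in KO and 1.01 and 0.504 FPKM in WT, and Hspb9, a small heat shock protein gene, had 0.445 and 0.784 FPKM in KO and 0.602 and 0.773 FPKM in WT.

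Whether Kat2b rises when Gcn5 is lost is the question the paralog pair poses, and no rise was found. Kat2b had 12.8 and 19.0 FPKM in the KO clones of lines 4 and 6, against 19.5 and 20.5 FPKM in the WT clones. Both KO values lay below both WT values, and the KO clone of line 6 lay close to its WT partner. The mean was 15.9 ± 4.39 FPKM in KO and 20.0 ± 0.726 FPKM in WT (SD, n = 2 each), so the KO clones differed from each other by more than the means did. Kat2b was not called (log2 fold change -0.33, SE 0.25, limma adjusted p = 0.445). The 95% interval of the log2 fold change ran from -0.86 to 0.19, a ratio of 0.552 to 1.14 on the FPKM + 1 scale.

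Relative to the median gene, Kat2b lay at -0.12 in line 4 and 0.082 in line 6, the 19.5 and 72.0 percentile of all differences. The lines thus stood on opposite sides of the median gene, as they did for 3 of the 6 genes and for 45.8% of tested genes, and with 1 clone of each genotype per line this was not tested. After centring, its log2 fold change was -0.029 with an interval from -0.56 to 0.50, a ratio of up to 1.42, and with the founder line as a block it ran from -0.23 to 0.18, a ratio of up to 1.13 (limma adjusted p = 0.968). Values within these intervals, small rises included, were not distinguishable here. Without KO replicate 1 Kat2b lay 0.189 above the median gene and without KO replicate 2 at -0.232, which also holds the difference between the lines. For KO minus WT, the median of the fibroblast markers lay 0.066 above the median gene in line 4 and 0.50 in line 6. It was thus higher in line 6, as for Kat2b, but the levels did not follow Kat2b. From line 4 to line 6 their summed FPKM went from 262.5 to 321.0 in KO and from 333.7 to 253.5 in WT. That of the 8 defining markers went from 102.6 to 92.1 in KO and from 135.4 to 68.0 in WT. Kat2b was higher in line 6 in both genotypes. The part of fibroblasts was not tested. In bulk RNA, fewer cells of a type and less RNA per cell cannot be told apart.

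In FPKM, both paralogs were lower in KO than in WT in either line. Kat2a differed between KO and WT by -27.2 FPKM in line 4 and -22.9 FPKM in line 6, and Kat2b by -6.65 and -1.48 FPKM. The summed level of both was 24.3 and 30.6 FPKM in KO and 58.2 and 55.0 FPKM in WT. The order within the pair changed with genotype. Kat2b was 1.12 and 1.65 times Kat2a in the KO clones, against 0.503 and 0.596 times in the WT clones, and the groups did not overlap. The mean ratio was 1.38 ± 0.377 in KO and 0.55 ± 0.0655 in WT (SD, n = 2 each), with an exact two-sided permutation p of 0.333, the smallest that 2 against 2 libraries allow. Both FPKM come from the same library, so this ratio does not depend on how a library was scaled as a whole. Per the labels the KO allele lacks exons 3 to 18, so the Kat2a FPKM of KO clones may not count molecules as that of WT clones does. The ratio and the summed FPKM are thus of signal per length, and not of molecules or enzyme.

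**Figure D3:**
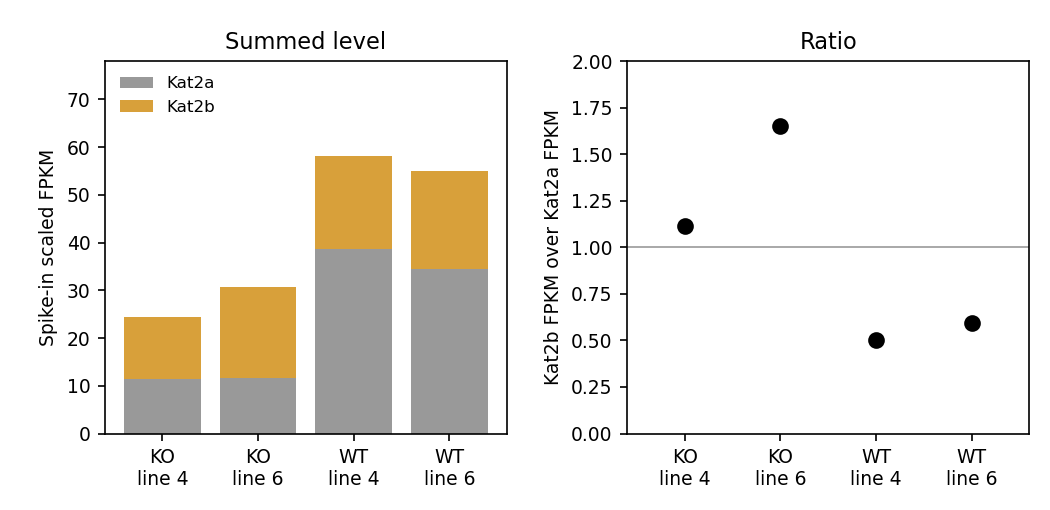
Left, summed spike-in scaled FPKM of Kat2a (grey) and Kat2b (yellow) in each library. Right, Kat2b FPKM over Kat2a FPKM, with a line at 1. The KO libraries lie above 1, at 1.12 and 1.65, and the WT libraries below it, at 0.503 and 0.596, while the yellow bars are no taller in KO.

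Each of the 4 partners had a lower value in KO than in WT within either line, and none was called. All 6 genes were lower in both lines, as were 86.3% of tested genes, and in 5 of 6 both KO values lay below both WT values, as in 59.8% of tested genes. With only 6 genes, 1 of them Kat2a itself, these counts were not tested against those of all genes. Relative to the median gene in each line, the 5 genes other than Kat2a lay within the 5th to 95th percentile of tested genes.

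Tada2a, the adaptor of ATAC, was the most abundant of the 6 per length. It had 29.2 and 27.3 FPKM in the KO clones of lines 4 and 6, against 42.4 and 35.4 FPKM in the WT clones. The groups did not overlap, and the mean was 28.2 ± 1.35 FPKM in KO and 38.9 ± 4.94 FPKM in WT (SD, n = 2 each). Its log2 fold change was -0.44 (SE 0.23, 95% interval -0.91 to 0.028, limma adjusted p = 0.445). Tada2a and Kat2a were the members below the median gene in both lines, Tada2a at -0.078 and -0.18, where 27.1% of tested genes were below it in both. Centred and blocked, the change of Tada2a was -0.14 on the log2 scale (limma adjusted p = 0.847).

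Tada2b, the adaptor of SAGA, was the scarcest. It had 2.27 and 3.37 FPKM in the KO clones of lines 4 and 6, against 3.08 and 3.58 FPKM in the WT clones. Here the genotypes overlapped, while both clones of line 6 lay above both of line 4. The log2 fold change was -0.19 (95% interval -0.75 to 0.36, limma adjusted p = 0.563), which the added 1 FPKM makes smaller for a gene at this level. Relative to the median gene Tada2b lay 0.12 above it in each line, and on centred values its change was 0.11, in the other direction from that on the deposited scale. Tada2a was 12.9 and 8.09 times Tada2b in KO and 13.7 and 9.87 times in WT, lower in KO in both lines. This ratio differed more between the lines than between the genotypes (exact two-sided permutation p = 0.667).

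Tada3, which SAGA and ATAC share, had 14.8 and 14.0 FPKM in the KO clones of lines 4 and 6, against 19.4 and 17.4 FPKM in the WT clones. The groups did not overlap (log2 fold change -0.33, 95% interval -0.83 to 0.16, limma adjusted p = 0.445). Relative to the median gene it lay at 0.076 in line 4 and -0.11 in line 6. Ccdc101 encodes Sgf29, whose Tudor domains bind methylated histone tails. It had 17.3 and 18.8 FPKM in the KO clones, against 25.1 and 20.6 FPKM in the WT clones, without overlap. Its log2 fold change was -0.32 (95% interval -0.81 to 0.18, limma adjusted p = 0.445), and it lay at -0.065 in line 4 and 0.063 in line 6 relative to the median gene.

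**Figure D4:**
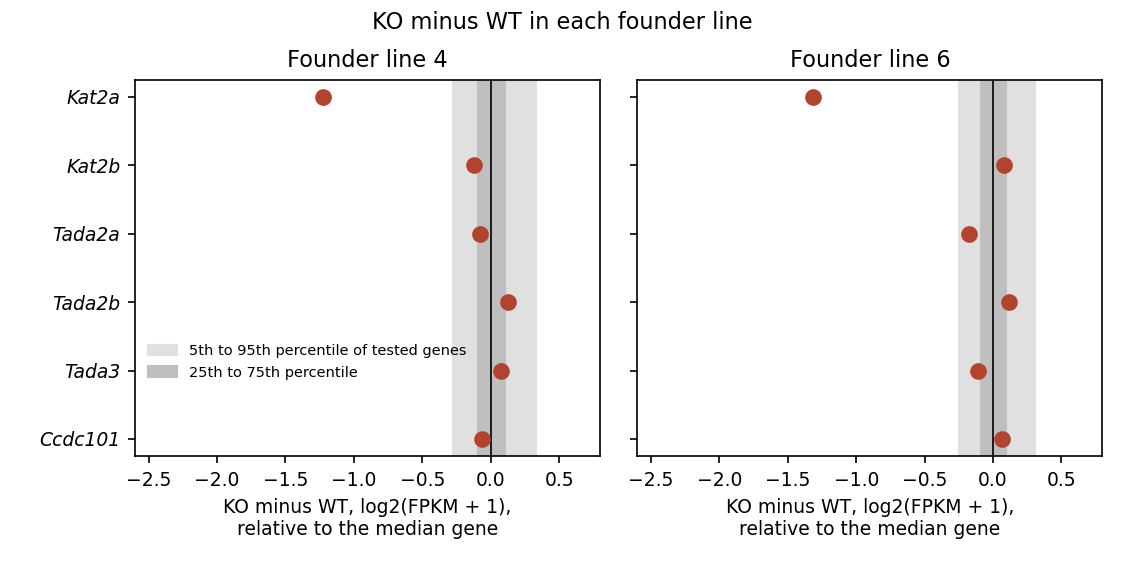
KO minus WT of the 6 genes in founder lines 4 (left) and 6 (right), as log2(FPKM + 1) relative to the median tested gene (vertical line), with bands for the central 50% and 90% of tested genes. Kat2a lies outside the wide band in both lines, at -1.22 and -1.31, and the other 5 genes lie within it.

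**Figure D5:**
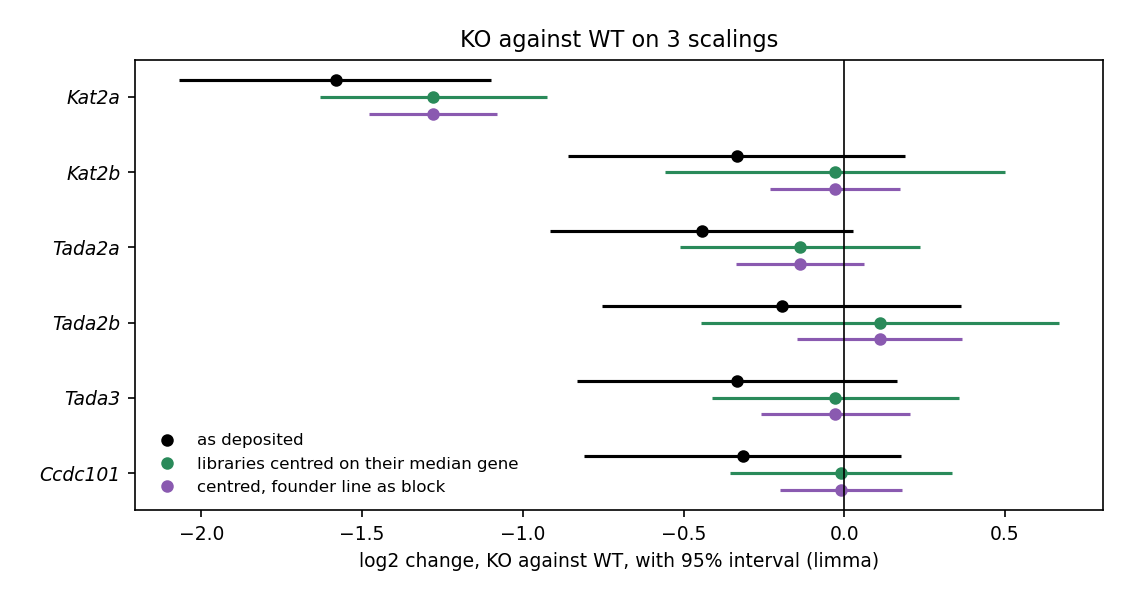
Log2 fold change of KO against WT with its 95% interval from limma, as deposited (black), with each library centred on its median gene (green), and centred with the founder line as a block (purple). The intervals of Kat2a lie below 0 on each scaling, and those of the other 5 genes include 0, with centred estimates between -0.14 and 0.11.

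FPKM are per length, so levels can be ordered within a library. In KO the order of the means was Tada2a, Ccdc101, Kat2b, Tada3, Kat2a and Tada2b, and the ranges of Ccdc101 and Kat2b overlapped, as did those of Kat2b and Tada3. In WT it was Tada2a, Kat2a, Ccdc101, Kat2b, Tada3 and Tada2b, where the ranges of Tada2a and Kat2a overlapped and those of other neighbours did not. By means, Kat2a thus moved to the fifth place in FPKM, and the order of the other genes was the same in both genotypes. Within single KO libraries that order varied. Kat2b lay below Tada3 in the KO clone of line 4 (12.8 against 14.8 FPKM). In the KO clone of line 6 it lay above Ccdc101 (19.0 against 18.8 FPKM). Since per the labels the KO allele lacks exons, the place of Kat2a in KO is one of signal per length, and not of molecules. Taken over Tada3 of the same library, Kat2a stood at 0.776 and 0.825 in KO and at 1.99 and 1.98 in WT. Ccdc101 over Tada3 was 1.17 and 1.34 in KO and 1.29 and 1.18 in WT, and Kat2b over Tada3 was 0.867 and 1.36 in KO and 1.00 and 1.18 in WT, with overlapping groups for both. The lowest p that such a ratio can reach is 0.333 in an exact two-sided permutation test.

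The founder line was compared in the same way, as it bears on Kat2b and Tada2b. Kat2b had 19.0 and 20.5 FPKM in the KO and WT clones of line 6 and 12.8 and 19.5 FPKM in those of line 4. The line 6/line 4 ratio was 1.48 in KO and 1.05 in WT for Kat2b, and 1.49 in KO and 1.16 in WT for Tada2b. Tada2b was higher in both clones of line 6 than in both of line 4, as were 16.3% of tested genes. On the deposited scale none of the 6 was called between the lines, where limma called 236 genes (1.98%), with Kat2b at 0.30 on the log2 scale (adjusted p = 0.999) and Tada2b at 0.29 (0.986). That fit, too, gave a gene's own spread no weight and used that of genes of like level. Its p-values thus do not measure how each gene varies between clones. On centred values Kat2b was called (log2 fold change 0.34, adjusted p = 0.0194) and Tada2b was not (0.33, adjusted p = 0.0594), among 3602 called genes (30.2%). The other 4 genes were not called between the lines on either scale.

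The rest of SAGA and ATAC, and other acetyltransferases, gave no called gene. The structural core of SAGA had 13 of 13 tested members, with 0 called higher and 0 lower by limma, where 2 of all 11932 tested genes were called. At an unadjusted limma p under 0.05, 1 was lower, beside 651 of all 11932 tested genes. In both lines 11 were lower, as were 86.3% of tested genes. The median log2 fold change was -0.25, against -0.32 over all tested genes. Supt3h, a core subunit with histone folds, had 1.76 and 2.14 FPKM in KO and 3.66 FPKM in each WT clone (log2 fold change -0.66, limma adjusted p = 0.445). Taf9, which SAGA shares with TFIID, had 61.7 and 63.6 FPKM in KO and 84.8 and 72.8 FPKM in WT (log2 fold change -0.32, adjusted p = 0.445). Supt3h lay at -0.31 and -0.39 relative to the median gene in lines 4 and 6, and Taf9 at -0.0078 and -0.0069. Supt3h was thus below the 5th percentile of tested genes, -0.278 and -0.249, in both lines. It was named for the lowest p of its list, so this adds no separate support.

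The deubiquitinase module of SAGA had 5 tested members of 6, with 0 called in either direction, 0 at an unadjusted p under 0.05 and a median of -0.23. Atxn7l3, an adaptor of the module, had 21.8 and 31.0 FPKM in KO and 30.2 and 38.4 FPKM in WT (log2 fold change -0.38, limma adjusted p = 0.445). Usp22, its ubiquitin protease, had 26.0 and 32.6 FPKM in KO and 31.8 and 39.1 FPKM in WT (log2 fold change -0.27, adjusted p = 0.45), and on centred values lay at 0.04. Both were higher in line 6 than in line 4 within each genotype.

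The ATAC subunits outside the module had 8 of 8 tested, 0 called in either direction, 0 at an unadjusted p under 0.05 and a median of -0.35. Wdr5, a WD repeat protein also found in histone methyltransferase complexes, had 63.0 and 68.0 FPKM in KO and 91.7 and 80.7 FPKM in WT (log2 fold change -0.39, limma adjusted p = 0.445). Mbip had 13.8 and 14.0 FPKM in KO and 19.4 and 18.0 FPKM in WT (log2 fold change -0.40, adjusted p = 0.445). The 8 other lysine acetyltransferases, all tested, had 0 called in either direction and a median of -0.31, close to that of all genes. At an unadjusted limma p under 0.05, 1 was lower, beside 651 of all 11932 tested genes. Myst4 (Kat6b) had 11.6 and 12.3 FPKM in KO and 18.1 and 16.6 FPKM in WT (log2 fold change -0.51, adjusted p = 0.445). Myst1 (Kat8), which acetylates a lysine in the tail of another histone than Gcn5 mainly does, had 22.8 and 24.2 FPKM in KO and 33.3 and 28.1 FPKM in WT (log2 fold change -0.37, adjusted p = 0.445).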

How the data were processed

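The members and gene lists were chosen with earlier results of these data known. The deposited values were FPKM scaled to spike-ins by the authors, per the file headers, 1 file per library. Per the labels, 1 µg RNA and 2 µL of spike-ins at a dilution of 1:100 were used. The sources used here do not say how the scaling was computed, and its part in the shift of the median gene was not tested. The submitters' processing notes name TopHat2 2.0.9, Bowtie 0.12.8, HTSeq, edgeR and affy, with no roles, and the build mm9. Each file had 23376 entries, and 92 spike-ins and 25 names that did not match between files were left out. Depth is unknown, so no counting interval is given. Analysis used log2(FPKM + 1), on which low genes change too little, and limma 3.58.1 in R 4.3.3 tested the genes that averaged 1 FPKM or more (trend, two-sided, Benjamini-Hochberg, threshold 0.05), KO against WT without a block. The test was checked on simulated data with unpaired libraries, no shift of the median gene and large planted changes. These data differ in each of these, so that check does not show how the test does here. Same-numbered libraries come from 1 founder line, so the numbers pair the samples (deviations correlated at r = 0.695). P-values of the unblocked test rest on the spread between 2 clones per genotype and on that of genes of like level. Alternatives were another pseudocount, no filter, centring, quantile normalization, the block, and each library left out. A block with a robust spread was added after the data were seen. Named genes were the 6 members, the 2 genes of each list with the lowest p, up to 2 genes with a value on each side of Kat2a in RefSeq's GRCm38.p6 annotation, without short RNA entries, and the 3 genes nearest in pattern to Kat2a and to Kat2b. Transcripts were taken from GENCODE M21 (GRCm38) and compared with Biopython 1.88.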

Additional observations from a re-analysis of the deposited data

Results flagged for a closer look

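For 3 of the 6 genes, KO minus WT lay on opposite sides of the median gene in the 2 founder lines. Kat2b was at -0.121 in line 4 and 0.0825 in line 6, Tada3 at 0.0757 and -0.112, and Ccdc101 at -0.0655 and 0.0632. With 1 clone of each genotype per line the difference between the lines was not tested. Opposite sides were also seen in 45.8% of all tested genes.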

How the results depend on the processing

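In KO against WT, the 2 calls became 0 without a filter, on centred values or with quantile normalization, 95 with the founder line as a block (4 higher, 91 lower), 33 with that block after centring (31 higher, 2 lower), and 91 with the block and a robust spread, which was chosen after seeing the data. Leaving out single libraries gave 0 to 133 calls. Kat2a stayed negative throughout, at -1.58 without a filter (adjusted p = 0.606), -1.28 centred and -1.25 with quantile normalization (adjusted p = 1 for both), and -1.67 to -1.5 without single libraries. Tada2b turned to 0.111 on centred values, with and without the block, to 0.0728 with quantile normalization, and ran from -0.405 to 0.0145 without single libraries. With quantile normalization Tada3 came to 7.32e-05 and Ccdc101 to 0.0196. The block changed no other call among the 6 genes. The other named genes that turned positive were Usp22 (0.04 centred, with and without the block, 0.0819 quantile), Zfp385c (0.228 and 0.193, and -0.253 to 0.0985 without single libraries), Rab5c (0.0359 and 0.0883), and with quantile normalization Taf9 (0.0266), Txnrd1 (0.0334) and Zfp110 (0.0125). Centring takes off the shift of the median gene, and the cause of the other changes was not tested. Between the lines, calls went to 0 without a filter, 3602 centred and 3865 with quantile normalization, where Kat2b passed at 0.344 centred and 0.331 and Tada2b at 0.311 with quantile normalization. Tada2b, at about 3 FPKM, is the gene whose values the added 1 FPKM touches most among the 6.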

Other observations

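Among 10385 tested genes with a name, Fam25c, Npffr2 and Cth had the patterns over the 4 libraries most like that of Kat2a, by root mean square distance of centred log2 values, at 0.351, 0.394 and 0.429, against a median distance of 0.654. They were picked by a pattern that includes the KO against WT difference, so their tests of that difference add no separate support. Fam25c had 6.53 and 7.58 FPKM in KO and 15.1 and 12.9 FPKM in WT (log2 fold change -0.90, limma adjusted p = 0.445, 0.0121 blocked by line, and 0.134 blocked and centred). Npffr2 had 0.0088 and 0.0351 FPKM in KO and 4.34 and 4.20 FPKM in WT (log2 fold change -2.37, adjusted p = 0.000175), and was also called blocked by line, as deposited (1.58e-31) and centred (0.0469). Without the block it was not called on centred values (limma adjusted p = 0.968), nor without KO replicate 1 or KO replicate 2 (0.304 and 0.127), where its log2 fold change was -2.06, -2.35 and -2.39. Cth, an enzyme of cysteine synthesis, had 38.3 and 59.6 FPKM in KO and 95.9 and 78.9 FPKM in WT (log2 fold change -0.85, adjusted p = 0.445, 0.00419 blocked by line, and 0.824 blocked and centred). Its groups did not overlap, and it lay at -0.86 in line 4 and -0.21 in line 6 relative to the median gene. As for Kat2a, the fit blocked by line on deposited values gave a gene's own spread no weight. Its p-values thus do not measure how Fam25c, Npffr2 and Cth vary between clones.

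Nearest to Kat2b were Ip6k2, an inositol hexakisphosphate kinase, Txnrd1, a thioredoxin reductase, and the zinc finger gene Zfp110, at distances of 0.004, 0.0068 and 0.0087, against a median distance of 0.198. Like Kat2b, each was lowest in the KO clone of line 4. Txnrd1, for instance, had 89.8 and 129 FPKM in the KO clones of lines 4 and 6 and 132 and 140 FPKM in the WT clones. These are descriptions over 4 libraries that pair by line and share their scaling, and many genes lay close to a pattern as flat as that of Kat2b.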
